A study of Mus musculus with 28 samples.

Results

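The cells described here are mouse liver pairs, each a hepatocyte sorted together with an attached CD31+ cell, at the 2 ends of a ranking by acute-phase transcripts. A pair's acute-phase share is the UMIs of Saa1, Saa2, Orm1, Orm2 and Lcn2 per 100 gene UMIs, where a UMI (unique molecular identifier) marks 1 captured mRNA molecule. The high pairs are the highest 10% by that share and the low pairs the lower 50%, both taken within each of 17 blocks of consecutive well numbers. That gave 469 high and 2315 low pairs, with 1837 between them, out of 4621 pairs and of 8341 wells in the whole series. The pairs were chosen by the levels of the 5 genes, so the values of these genes describe the choice and test nothing.

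Transcripts were counted from their 3' ends with MARS-seq, a plate-based method, so that a level does not scale with a transcript's length. The pairs came from 17 libraries of 3 male C57BL/6 mice, 1 aged 6 weeks and 2 aged 7 weeks. A second table held 3720 single non-parenchymal cells from 11 libraries of 2 male C57BL/6 mice aged 3 and 4 months. All mice were kept on a reversed light cycle, fasted for 2 h and anesthetized with ketamine and xylazine before their livers were perfused with Liberase or collagenase D. No group had a genetic change, an infection or an inflammatory agent, per the labels. No source ties a well to a library or mouse, so the pairs were treated as 1 sample. Levels and ratios carry 95% intervals that cover counting error only, with no p-value.

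The acute phase is the liver's change in secreted proteins after injury or infection. Hepatocytes receive interleukin-6, which acts through STAT3, and interleukin-1, which acts through NF-kB and C/EBP factors, and then make more of some plasma proteins and less of others. Saa1 and Saa2 encode serum amyloid A, carried on high-density lipoprotein, and Orm1 and Orm2 encode orosomucoids, which bind drugs and lipids. Lcn2 encodes lipocalin 2, which binds bacterial siderophores and so withholds iron.

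Blocks 1 and 2 stood apart from the other 15. In their 75 pairs the acute-phase share ran from 1.29% to 5.29% with a median of 2.66%, while the median over the other 4546 pairs was 0.0556%. Medians of the other 15 blocks ran from 0.0377% to 0.0738%. The 75 pairs held 50328 of the 88992 acute-phase UMIs in the table, and even their low pairs had a median share of 2.30%. The plot of acute-phase share by block shows that their low pairs lie above nearly all high pairs elsewhere. Block numbers equal the numbers in the library titles, and titles 1 and 2 carry the labels of the mouse aged 6 weeks. No source states that a block is a library, so mouse, age and block cannot be told apart. Levels of the ranking genes are therefore given for the other 15 blocks, which held 461 high and 2277 low pairs, and ratios of other genes for all 17 unless stated. Of the 137 other genes followed here, leaving out blocks 1 and 2 moved only the log2 ratio of Saa3 by more than 0.25.

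**Figure D1:**
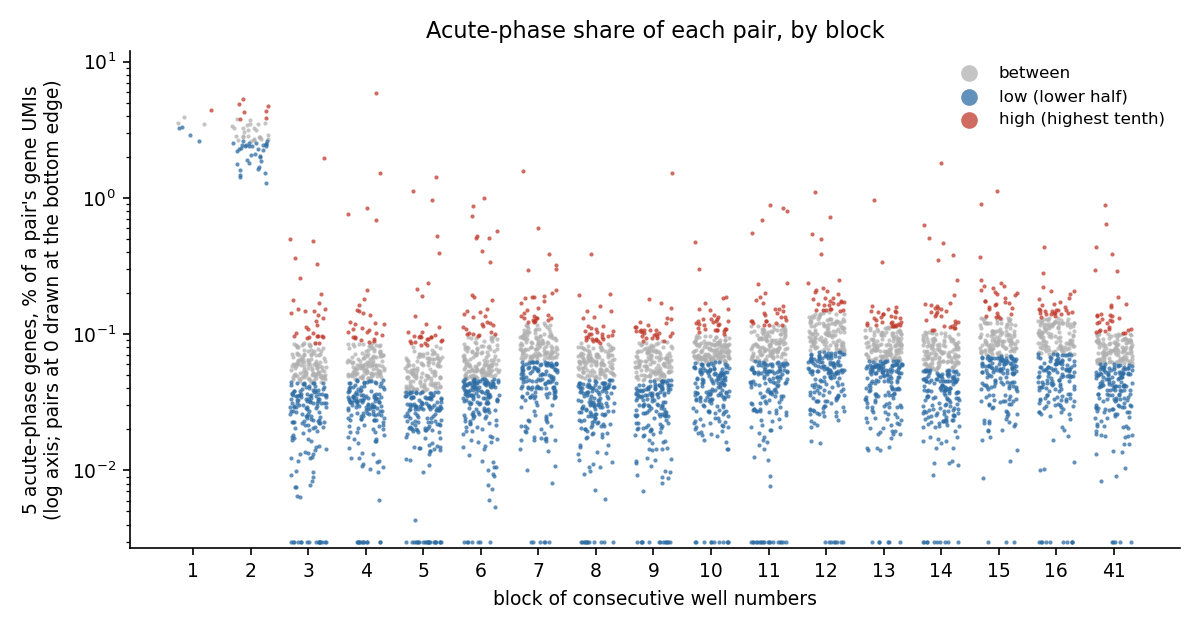
Acute-phase share of each of the 4621 pairs (log axis, percent of gene UMIs) by block of well numbers, coloured by group, with pairs at 0 drawn at the bottom edge. Blocks 1 and 2 lie between 1.29% and 5.29%, and the medians of the other 15 blocks between 0.0377% and 0.0738%.

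The sequences before the start sites of 7 genes are shown because the results separate these genes: Saa1, Saa2, Saa3 and Lcn2 stood far higher in some pairs, Orm2 moved with Orm1 in a graded way, Cxcl9 moved with Saa3, and Saa4, a neighbour in the same gene cluster, hardly moved. Each is the 250 bases before the start site, 5′ to 3′ on the gene's strand, from RefSeq on GRCm38.p6. The table held 4 of the 5 ranking genes, and Orm1 was not among them. Capitals mark matches, on either strand, to an NF-kB motif GGGNNNNNCC, a STAT motif TTCNNNGAA and a C/EBP motif TTGCNNAA.
Saa1 (chr7:46742981-46743230, minus strand): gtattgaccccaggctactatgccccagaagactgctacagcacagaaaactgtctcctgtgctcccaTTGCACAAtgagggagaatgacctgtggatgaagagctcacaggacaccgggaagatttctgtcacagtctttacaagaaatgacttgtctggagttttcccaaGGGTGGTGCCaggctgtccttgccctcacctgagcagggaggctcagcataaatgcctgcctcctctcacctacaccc
Saa2 (chr7:46751583-46751832, plus strand): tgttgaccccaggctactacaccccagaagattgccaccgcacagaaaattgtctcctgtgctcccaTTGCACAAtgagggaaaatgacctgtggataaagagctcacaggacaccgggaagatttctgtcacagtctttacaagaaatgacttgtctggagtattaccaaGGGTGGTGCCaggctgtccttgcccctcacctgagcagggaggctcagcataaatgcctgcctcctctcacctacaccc
Saa3 (chr7:46715677-46715926, minus strand): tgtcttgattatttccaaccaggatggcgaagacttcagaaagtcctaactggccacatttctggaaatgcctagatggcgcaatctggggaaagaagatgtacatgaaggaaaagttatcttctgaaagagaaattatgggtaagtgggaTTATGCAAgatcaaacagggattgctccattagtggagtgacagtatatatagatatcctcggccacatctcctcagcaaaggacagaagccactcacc
Saa4 (chr7:46732604-46732853, minus strand): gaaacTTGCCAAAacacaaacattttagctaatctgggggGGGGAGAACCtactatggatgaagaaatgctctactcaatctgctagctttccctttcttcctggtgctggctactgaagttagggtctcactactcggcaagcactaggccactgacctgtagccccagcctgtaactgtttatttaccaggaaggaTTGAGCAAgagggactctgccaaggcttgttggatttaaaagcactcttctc
Lcn2 (chr2:32387740-32387989, minus strand): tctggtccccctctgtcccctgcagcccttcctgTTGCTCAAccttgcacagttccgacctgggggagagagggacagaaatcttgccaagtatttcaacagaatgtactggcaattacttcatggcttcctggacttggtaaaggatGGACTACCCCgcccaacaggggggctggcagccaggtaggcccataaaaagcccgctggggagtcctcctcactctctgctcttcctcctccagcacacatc
Orm2 (chr4:63362199-63362448, plus strand): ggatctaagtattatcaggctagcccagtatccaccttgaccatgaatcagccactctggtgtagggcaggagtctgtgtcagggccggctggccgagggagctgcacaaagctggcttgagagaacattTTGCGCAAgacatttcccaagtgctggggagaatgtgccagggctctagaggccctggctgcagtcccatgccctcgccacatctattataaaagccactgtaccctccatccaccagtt
Cxcl9 (chr5:92328080-92328329, minus strand): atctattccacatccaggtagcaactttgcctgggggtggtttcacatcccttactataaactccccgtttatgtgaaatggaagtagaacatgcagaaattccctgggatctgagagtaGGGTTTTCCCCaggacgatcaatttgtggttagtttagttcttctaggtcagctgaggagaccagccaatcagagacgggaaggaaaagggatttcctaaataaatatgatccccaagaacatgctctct
The Saa1 and Saa2 sequences were identical at 238 of 249 aligned bases, or 95.6%. The C/EBP letters were in 6 of these 7 windows, against 9.56% of all 32851 windows of that length in the table. The NF-kB letters were in 5 of 7, against 45.8% of all windows, and the STAT letters were in none, against 7.02%. In Cxcl9 the capitals are 2 overlapping matches to the NF-kB letters. The 7 genes were picked for their values, and a match is a run of letters, not a binding site.

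The high pairs were a mixed group. Over the 15 blocks their median share was 0.138%, from 0.0828% to 5.86%, which a median of 13 acute-phase UMIs gave. In low pairs the median was 0.0350%, from 3 UMIs, and 161 of the 2277 low pairs had none. At the upper limit, the lowest high pair of a block lay between 0.0828% and 0.147% and the highest pair below it between 0.0812% and 0.147%. In all, 348 pairs lay within 10% of their block's limit, so the group has no gap at its edge. High pairs had a median of 8767 gene UMIs and low pairs 10022. The shallow pairs fell to both ends, with a median of 7017.5 in the lowest 10% of the 15 blocks and of 12146 in the sixth 10%.

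In low pairs Orm1 made up 81.9% of the ranking UMIs of the 15 blocks, and in high pairs Saa1 made up 40.4%, Orm1 35.5% and Saa2 21.2%. Orm1 was found in 99.6% of all high and 89.5% of all low pairs, at 837 against 301 UMIs per 1000000 in the 15 blocks. Over those blocks its level ran from 571 to 1267 (median 939) in high pairs and from 180 to 423 (median 324) in low pairs. Orm1 is a ranking gene, so that separation follows from the choice. Saa1 stood at 952 against 53.9 per 1000000, a ratio of 17.7. Its block levels ran from 399 to 2219 (median 963) in high pairs and from 43.2 to 71.9 (median 52.3) in low pairs.

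Saa2 was sparser, at 501 against 3.94 per 1000000, and it was found in 38.4% of all high and 5.66% of all low pairs. Its block levels ran from 33.2 to 1833 in high pairs and from 1.09 to 11.9 in low ones. Lcn2 stood at 42.7 against 2.04 per 1000000, and in some of the 15 blocks either group had none. Orm2 stood at 27.0 against 6.76. With blocks 1 and 2, whose low pairs are themselves rich in these transcripts, the ratios were 4.74 for Saa1 and 5.44 for Saa2.

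The makeup of the share varied among high pairs. In 288 of the 461 (62.5%) Orm1 and Orm2 made up over 50% of the acute-phase UMIs, and in 146 (31.7%) Saa1 and Saa2 did. Among low pairs these shares were 80.6% and 6.68%. The balance within each gene couple shifted too. There were 1.90 Saa1 UMIs per Saa2 UMI in high pairs and 13.7 in low pairs, and 1.08 and 1.40 in the high and low pairs of blocks 1 and 2. Orm1 outnumbered Orm2 by 31.0 in high and 44.6 in low pairs, and by 7.74 and 5.70 in blocks 1 and 2. Saa1 and Saa2, and Orm1, Orm2 and Orm3, are near-identical copies, and how the authors' counting split their reads is not given in the sources used here.

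Summed over the group, pairs ranked by some of the 5 genes also held more of the others. When the pairs were ranked by the other 4 genes, Saa1 in the 15 blocks stood at 803 against 98.3 per 1000000 (log2 ratio 3.03, interval 2.96 to 3.10). Saa2 then had a log2 ratio of 5.98 (5.77 to 6.20) and Lcn2 one of 3.87 (3.48 to 4.27). Orm1 differed far less, at 568 against 445 (log2 0.35, 0.29 to 0.41), and Orm2 had a log2 ratio of 1.33 (0.997 to 1.67). In these rankings Saa1 was still ranked by Saa2, Orm1 by Orm2, and the reverse, which are near-identical copies. Ranked by Orm1 and Orm2 alone, Saa1 had 2.35 (2.27 to 2.42) and Saa2 4.74 (4.57 to 4.91). By Saa1 and Saa2 alone, Orm1 had 0.33 (0.27 to 0.39) and Orm2 1.06 (0.72 to 1.39). None of this was tested.

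The rank held less well for Orm1 than for Saa2. Each pair's UMIs were split at random in equal parts, 1 part to rank and the other to read. Orm1 had a log2 ratio of 1.92 in the part that ranked and 0.59 (0.51 to 0.68) in the other, while Saa2 had 6.76 and 6.35 (6.03 to 6.69). Of the 469 high pairs by all UMIs, 295 (62.9%) were also high by 1 part, where a group of that size is 10.1% of all pairs. That part is contained in all UMIs, so some of the overlap was built in.

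Levels across the ranking show the same division, in the plot of summed levels over 10 equal steps. Orm1 increased in each step, from 108 per 1000000 in the lowest 10% to 711 in the next-to-highest and 835 in the highest. Saa2 went from 1.58 to 25.1 and then to 500, and Lcn2 from 0.789 to 4.50 and then to 42.6. Among genes the ranking does not use, Saa3 stayed between 2.64 and 5.62 over the first 9 steps and reached 204 in the last. Cxcl9 stayed between 9.14 and 23.7 and reached 290.

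**Figure D2:**
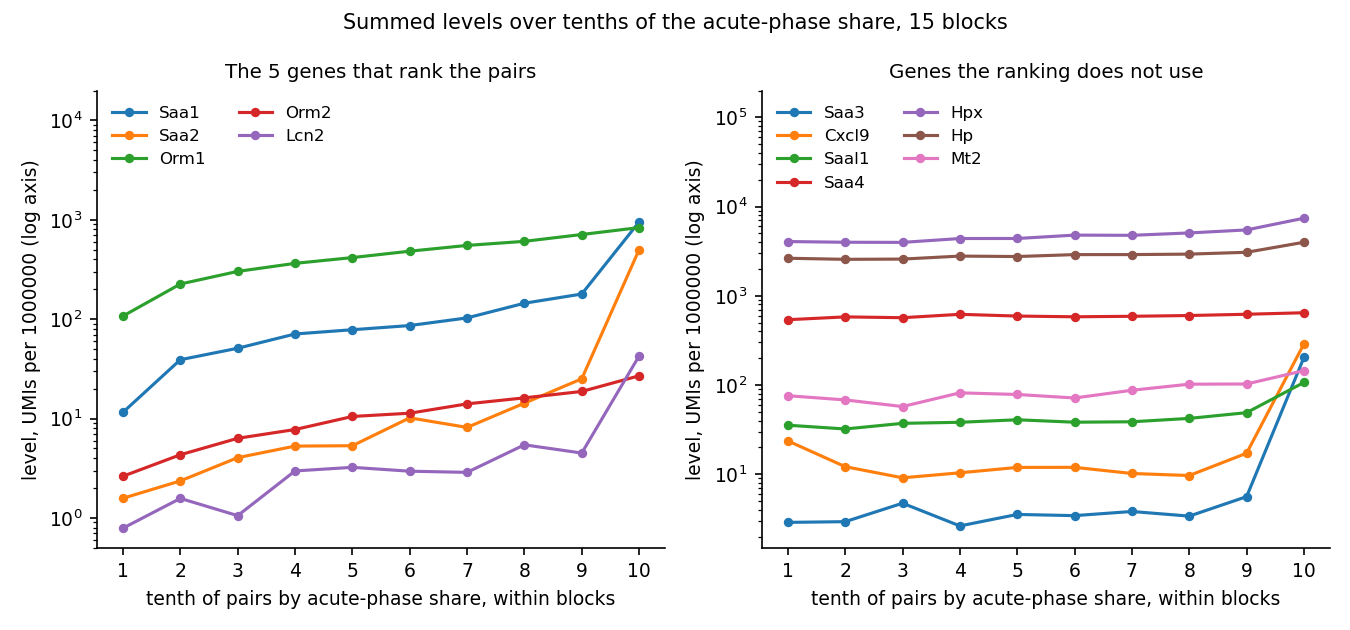
Summed levels (UMIs per 1000000 gene UMIs, log axis) over 10 equal steps of the acute-phase share within the 15 blocks, for the 5 ranking genes and for 7 others. Orm1 increases at every step, Saa3 and Cxcl9 increase almost only in the last, from 5.62 to 204 and from 17.2 to 290, and Saa4 lies between 540 and 646 throughout.

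Few of the other genes differed much. Among the 7915 genes, ranking genes aside, whose UMIs reached 200 in all, 49 (0.619%) were at least 1.5-fold higher in high pairs and 130 (1.64%) at least 1.5-fold lower. The median log2 ratio was -0.05, and with ratios centred on that median the counts were 65 and 93. Without blocks 1 and 2 the counts were 50 (0.638%) and 124 (1.58%) of 7833 genes.

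Saa3 differed most. It encodes a serum amyloid A made in inflamed liver and in other tissues. It stood at 201 against 6.64 per 1000000, a log2 ratio of 4.92 (4.69 to 5.15), with 1000 UMIs in high and 184 in low pairs. Its level in high pairs of the 15 blocks ran from 15.1 to 431 (median 175), and in low pairs from 0.801 to 8.64 (median 3.01), with no overlap. Without blocks 1 and 2 its log2 ratio was 5.90. It was higher in high pairs in 14 of the 15 blocks with at least 10 of its UMIs. No more than 20.7% of high pairs had any Saa3 UMI, against 4.15% of low pairs.

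The other members of the families went different ways. Saa4, the serum amyloid A gene that liver makes constantly, was found in 94.7% of both groups, at 636 against 575 per 1000000 (log2 0.15, 0.09 to 0.20). Orm3 had only 22 and 75 UMIs (log2 0.71, -0.05 to 1.41), too few to pass the minimum. Saal1, which lies next to Saa3 on the same strand and is named for that place, stood at 109 against 40.8 (log2 1.42, 1.26 to 1.56) and was higher in 17 of 17 blocks.

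Cxcl9 came second. It encodes a chemokine that draws T cells and is induced by interferon gamma. It stood at 282 against 13.1 per 1000000 (log2 4.43, 4.26 to 4.60), and 42.9% of its UMIs in high pairs came from 5 pairs. Its block levels overlapped, from 5.05 to 823 (median 215) in high pairs and from 5.95 to 56.3 (median 10.9) in low pairs. It was higher in 15 of 16 blocks read. Cxcl10, a related chemokine, stood at 22.3 against 4.69 (log2 2.25, 1.87 to 2.63), with 73.9% of its 111 UMIs in 5 pairs, and was higher in 8 of 10 blocks.

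The other acute-phase proteins differed little. Of 37 listed genes 30 had enough UMIs, and 27 of these were higher in high pairs, against 38.6% of all genes measured. Their median log2 ratio was 0.16, 2 were at least 1.5-fold higher and 1 was at least 1.5-fold lower. Hpx, which encodes the heme scavenger hemopexin, stood at 7896 against 4537 per 1000000 (log2 0.80, 0.78 to 0.82). Its block levels ran from 4710.3 to 10002 in high and from 2835 to 5916 in low pairs of the 15 blocks, and it was higher in 17 of 17 blocks. Mt2, a metallothionein that binds zinc, had a log2 ratio of 0.98 (0.86 to 1.10).

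Hp, encoding haptoglobin, which binds free hemoglobin, stood at 4235 against 2885 per 1000000 (log2 0.55, 0.53 to 0.58). Lbp, which presents bacterial lipopolysaccharide, had 0.47 (0.33 to 0.62), and complement C3 0.30 (0.27 to 0.32). The fibrinogen chains Fga, Fgb and Fgg had 0.19, 0.16 and 0.17, the pentraxins Apcs and Crp 0.35 and 0.09, and Serpina3n 0.23. Lrg1, a leucine-rich glycoprotein of plasma, stood at 444 against 422 (0.08, 0.01 to 0.14). Lect2, a secreted chemotactic factor, was lower, at 99.8 against 166 (log2 -0.74, -0.87 to -0.60), but had -0.08 (-0.20 to 0.03) with groups taken within zones.

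Plasma proteins known to fall in an acute phase were not lower as a list. Of 19 measured, 13 were higher and 6 lower, with a median log2 ratio of 0.05 and none past 1.5-fold. Alb, encoding albumin, stood at 69854 against 60457 per 1000000 (log2 0.21, 0.20 to 0.21), but with groups taken within zones it had -0.06 (-0.07 to -0.06). The list median was then 0.01. In the groups taken within blocks alone, Ttr, the carrier of thyroxine and retinol-binding protein, stood at 12482 against 12541. Trf, encoding transferrin, had a log2 ratio of 0.23 and Pon1, a lipoprotein esterase, -0.39. Complement genes had a median of 0.11 over 18 genes, with C9 at 0.29 and C6 at -0.24, and coagulation genes one of 0.08 over 22.

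Genes of the signalling routes were read route by route, and the difference between routes was not tested. Of 17 measured genes of the interleukin-6 and STAT3 route none passed 1.5-fold, and the median log2 ratio was -0.08. Socs3, the feedback inhibitor that STAT3 induces, had 43 and 265 UMIs (log2 -0.15, -0.65 to 0.32), and Cebpb, a C/EBP factor, had -0.24 (-0.31 to -0.17). Of 14 measured NF-kB pathway genes and targets 4 were at least 1.5-fold higher, against 0.619% of all genes: Saa3, Cxcl10, Pigr and Ikbke. The median was 0.19. The minimum for a measured gene sums the UMIs of both groups, so an excess in high pairs counts toward it. Saa3, Cxcl10 and Ikbke reached it only with their UMIs in high pairs added. The count of 4 therefore depends in part on that minimum, and its contrast with all genes was not tested. Pigr, the receptor that carries IgA into bile, had a log2 ratio of 0.67 (0.61 to 0.73) and was higher in 17 of 17 blocks, but with groups taken within zones it had 0.15 (0.09 to 0.21). Ikbke, a kinase of this route, had 0.63 (0.16 to 1.07) on 53 and 191 UMIs, and 0.58, under 1.5-fold, without blocks 1 and 2. The count was 3 without those blocks.

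Interferon-responsive genes leaned higher by small amounts. Of 25 measured 22 were higher, against 38.6% of all genes, and none passed 1.5-fold, with a median log2 ratio of 0.19. Without blocks 1 and 2, 2 of them passed 1.5-fold. Ifit1 and Rsad2, antiviral genes of the type I response, had 0.56 and 0.49, but 68.7% and 63.3% of their UMIs in high pairs lay in 5 pairs. They were higher in 6 and 5 of 15 blocks. Gbp2, a guanylate-binding protein with 49 and 58 UMIs, was below the minimum and had 2.23 (1.65 to 2.81). It was singled out after its values were seen.

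**Figure D3:**
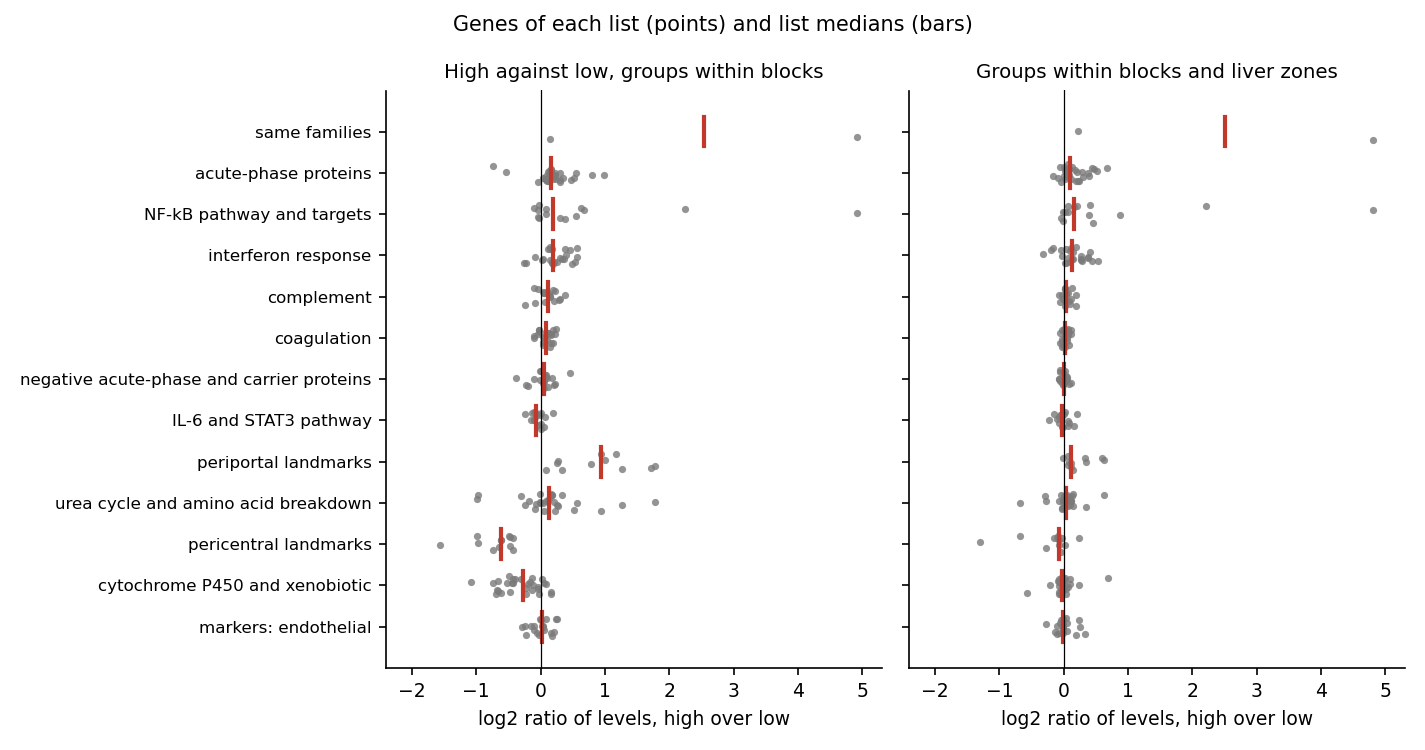
Log2 ratio of levels, high over low pairs, for each gene with at least 200 UMIs in 13 lists (points) and list medians (bars), with groups taken within blocks (left) and within blocks and liver zones (right). The periportal median moves from 0.94 to 0.12 and the pericentral one from -0.62 to -0.08. Zones were read from these landmarks, so that move was set by the choice. Saa3 stays at 4.92 and 4.80.

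High and low pairs also differed in position in the liver lobule. Whether position accounts for differences of other genes was not tested. Blood flows from the portal vein to the central vein, and hepatocytes along that path split their work. A pair's zone was read from 14 pericentral and 12 periportal landmark genes, with zones as tertiles over all pairs. Of the high pairs 51.0% (46.3 to 55.6) were periportal, 24.5% middle and 24.5% pericentral. Of the low pairs 26.0% (24.3 to 27.9) were periportal, 34.9% middle and 39.0% pericentral. Over the 15 blocks the periportal share ran from 23.3% to 70.0% (median 53.1%) in high pairs and from 10.97% to 39.5% (median 28.0%) in low pairs.

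The genes with the largest differences after Saa3 and the chemokines include several of these landmarks. Higher in high pairs were Sds, which breaks down serine (284 against 82.6 per 1000000, log2 1.78), and Hal, which breaks down histidine (log2 1.27), both periportal landmarks. So was the landmark Ctsc, a lysosomal protease (1.71). Cryl1 (1.83), a sugar dehydrogenase, Slc3a1 (1.49), an amino acid transporter subunit, Fgfr2 (1.42), Ctnnbip1 (1.37), an inhibitor of beta-catenin, and Cdh1 (1.28), encoding E-cadherin, complete the 12 largest with Saal1. All 11 measured periportal landmarks were higher, with a median of 0.94, and all 12 measured pericentral ones were lower, with a median of -0.62.

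Lower in high pairs were Mup17, a major urinary protein (452 against 1689 per 1000000, log2 -1.90), and Slc1a2, the glutamate transporter (-1.56). Lpl, encoding lipoprotein lipase, had -1.34, and Tbx3, a Wnt-driven factor of pericentral hepatocytes, -1.31. Glul, encoding glutamine synthetase, had -0.995, and Oat, which makes glutamate from ornithine, -0.98. Of 30 cytochrome P450 and drug-metabolism genes 7 were at least 1.5-fold lower, against 1.64% of all genes, and none higher, with a median of -0.27, led by Cyp4a14 (-1.09). Cyp2c38 had -1.29 and Cyp2a4 -1.25. Gm13775 (-1.59), Mup17, and the Cyp2c and Cyp2a genes have near-identical copies, so their counts are uncertain. Ap1ar, Ccdc34, Olfm1 and Cdh13, with 189 to 240 UMIs in low pairs, complete the 12 lowest, at -1.20, -1.18, -1.07 and -1.04.

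When high and low pairs were chosen within each zone, many of these differences were smaller, but not all. Then 28 of 7930 genes (0.353%) were at least 1.5-fold higher and 47 (0.593%) lower. The pericentral median became -0.08 and the periportal 0.12. Of 12 measured pericentral landmarks 10 were still lower, 2 of them at least 1.5-fold, and the lowest had -1.31. Of 11 periportal ones 10 were still higher, 2 of them at least 1.5-fold. The zones were read from these same landmarks, so the move of both medians toward 0 was set by the choice. The P450 median became -0.03. Sds had 0.63 (0.52 to 0.74), Hal 0.35 and Cdh1 0.26 (-0.12 to 0.62). Cyp2c29, which had -0.69, had 0.00. Among acute-phase genes Hpx had 0.52 (0.51 to 0.54), Hp 0.47 (0.45 to 0.49) and Mt2 0.68 (0.55 to 0.81), with a list median of 0.10.

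Saa3, Cxcl9 and Saal1 hardly changed, at 4.80, 4.32 and 1.47. Within the periportal, middle and pericentral pairs alone Saa3 had log2 ratios of 5.28, 4.87 and 4.06, and Cxcl9 4.77, 4.42 and 3.47. Hpx had 0.56, 0.48 and 0.58 in that order. Some genes changed sign between zones, and 2 were picked after their values were seen. Mup17 had 0.19, 0.30 and -1.52. Cxcl10 had 3.61, -1.04 (-2.54 to 0.15) and 2.26, with 6 UMIs in the high pairs of the middle zone. Differences between zones were not tested.

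The zones also differed in level, for pairs of the 15 blocks whatever their rank. From periportal to pericentral, Saa1 stood at 200, 137 and 151 per 1000000 and Saa2 at 80.9, 45.8 and 26.4. Orm1 stood at 526, 451 and 426, Hpx at 6999, 4428 and 2957, and Cxcl9 at 51.2, 33.2 and 24.8. Saa4 went the other way, at 545, 557 and 689. Between periportal and pericentral pairs Saa2 differed 3.06-fold and Orm1 1.24-fold. Without the highest pair, which held 475 of the 1495 periportal Saa2 UMIs, the Saa2 ratio was 2.09. Without the highest 1% it was 1.13, the Saa1 ratio went from 1.32 to 0.944, and the Orm1 ratio was 1.22. These levels rest on the pairs that also make up the ranking.

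**Figure D4:**
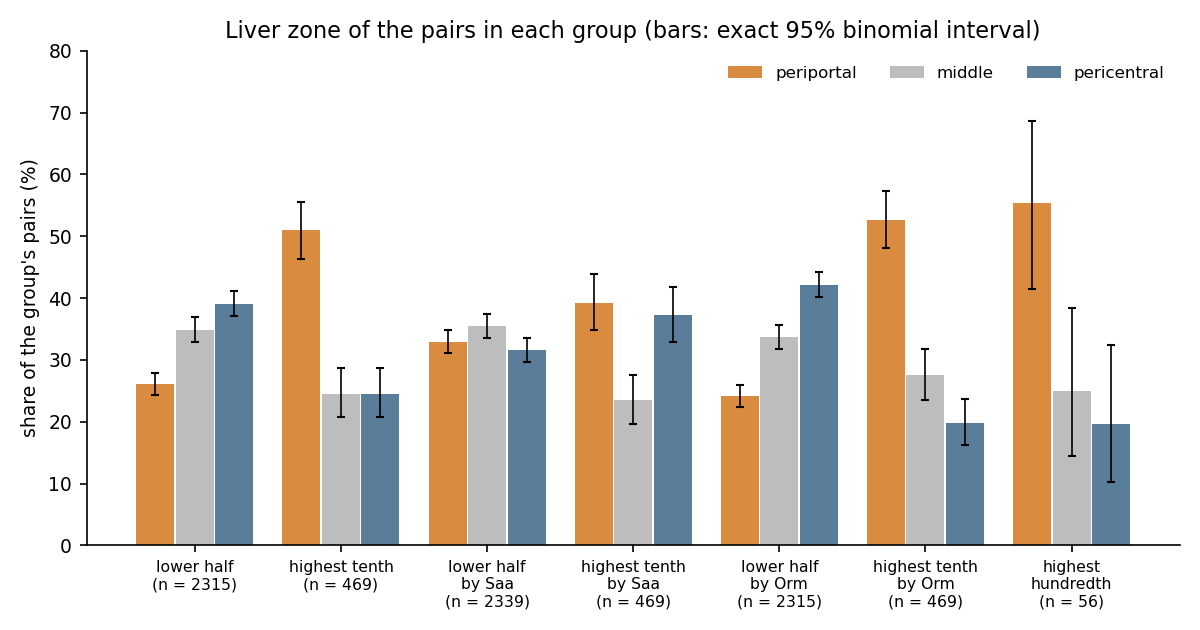
Share of pairs in each liver zone (bars, percent, with exact 95% binomial intervals) for the lower 50% and highest 10% by all 5 genes, by Saa1 and Saa2, and by Orm1 and Orm2, and for the highest 1%. The highest 10% is 51.0% periportal by all 5 genes, 39.2% by the Saa genes and 52.7% by the Orm genes.

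Ranking by the Saa genes and by the Orm genes gave partly overlapping groups. Of the 469 high by Saa1 and Saa2 and the 469 high by Orm1 and Orm2, 100 were in both, or 21.3% of each, where a group of that size is 10.1% of all 4621 pairs. By the Orm genes 52.7% (48.0 to 57.3) of high and 24.2% (22.5 to 26.0) of low pairs were periportal, and 19.8% and 42.2% pericentral. By the Saa genes 39.2% (34.8 to 43.8) of high and 33.0% (31.1 to 34.9) of low pairs were periportal, and 37.3% (32.9 to 41.9) and 31.6% (29.7 to 33.5) pericentral. Pairs of the middle zone were fewer among those high by Saa, 23.5% against 35.5%.

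Several pericentral genes changed sign between the rankings. Glul stood at 446 against 268 per 1000000 by Saa (log2 0.74, 0.67 to 0.80) and at 167 against 504 by Orm (-1.59, -1.70 to -1.49). Of its UMIs among the pairs high by Saa, 39.5% lay in 5 pairs, and it was found in 67.4% of these pairs against 68.3% of the low ones. Oat had 0.83 (0.77 to 0.90) and -1.78, and Mup17 0.77 and -2.05, with 24.0% and 27.6% in 5 pairs by Saa. Slc1a2 had 1.29 (1.13 to 1.46) and -2.30, with 57.6% of its UMIs among the pairs high by Saa in 5 pairs. By Orm these 4 genes were higher in high pairs in no block read, and by Saa in 10, 12, 12 and 10 of 17, 17, 17 and 15 blocks. The difference between the rankings was not tested, and both draw on the same pairs.

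Saa3 and Cxcl9 were higher in both rankings. Saa3 had 4.89 (4.66 to 5.13) by Saa and 3.02 (2.83 to 3.22) by Orm, and Cxcl9 4.31 and 3.20. The Orm values rest on fewer pairs, with 45.1% and 63.4% of the UMIs in 5 pairs. Hpx had 0.51 and 0.72 and Hp 0.42 and 0.43. Saa4 had 0.34 (0.29 to 0.39) by Saa and -0.03 (-0.09 to 0.03) by Orm, and it was higher in 16 of 17 blocks by Saa. The median over the acute-phase protein list was 0.05 by Saa and 0.21 by Orm. By Saa 35 of 7786 genes (0.45%) were at least 1.5-fold higher and 42 (0.539%) lower, and by Orm 58 (0.737%) and 189 (2.4%) of 7867.

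**Figure D5:**
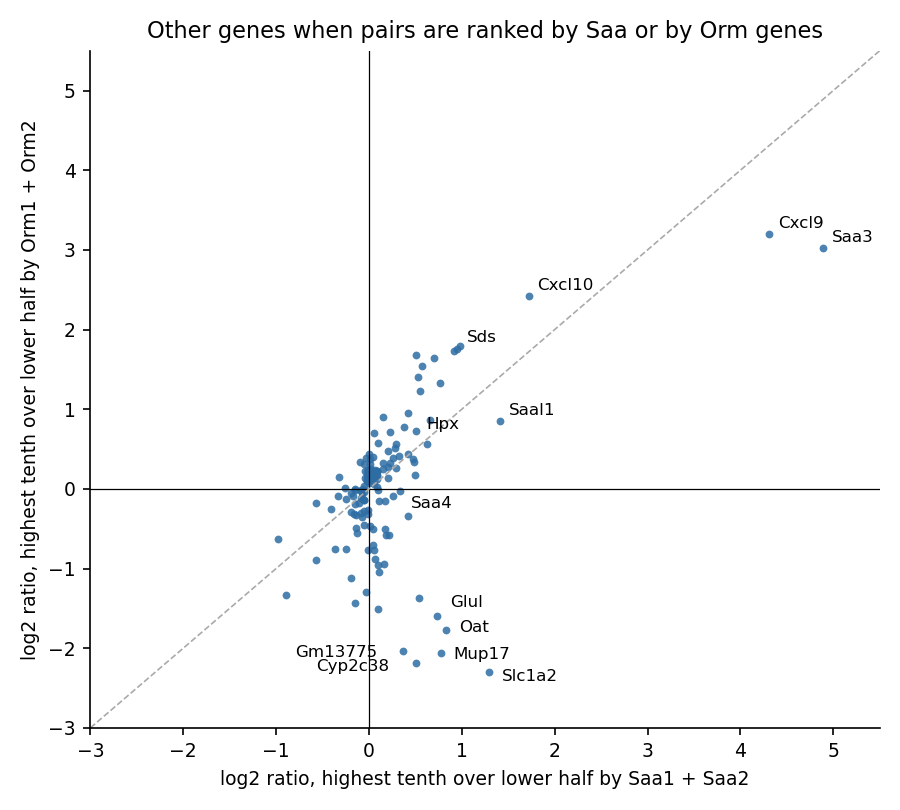
Log2 ratios of 137 genes followed here when pairs are ranked by Saa1 and Saa2 (horizontal) and by Orm1 and Orm2 (vertical), with a dashed line of equal ratios. Saa3 and Cxcl9 are high on both axes, and Glul, Oat, Mup17 and Slc1a2 lie above 0 on the horizontal and below 0 on the vertical axis.

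In the highest 1% of the ranking Saa transcripts dominated. In the 15 blocks it held 54 pairs, 3 or 4 in each block, with shares from 0.155% to 5.86% (median 0.525%). Saa1 and Saa2 made up over 50% of the acute-phase UMIs in 48 of them. All 54 had Saa1 UMIs, from 1 to 397 with a median of 29, and 47 had Saa2 UMIs. Lcn2 was found in 29 (53.7%), against 7.86% in the rest of the highest 10% and 49 of the 2277 low pairs. The highest pair, in block 4, held 397 Saa1, 475 Saa2, 43 Lcn2, 81 Saa3 and 99 Cxcl9 UMIs of 16134.

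Saa3 and Cxcl9, which the ranking did not use, gathered in these pairs. Saa3 was found in 35 of the 54 (64.8%, 50.6 to 77.3), in 14.99% of the rest of the highest 10% and in 3.25% (2.56 to 4.06) of low pairs. Cxcl9 was found in 33 (61.1%, 46.9 to 74.1), in 18.4% and in 9.35%. Both were found in 29 pairs, Saa3 alone in 6, Cxcl9 alone in 4 and neither in 15. The median depths of the 3 groups were 9760, 8694 and 10022 UMIs. With every pair thinned to 2000 UMIs, 13.4% of high and 0.821% of low pairs had a Saa3 UMI, and 12.8% and 2.42% a Cxcl9 UMI.

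Hpx and Hp followed in smaller steps. Hpx stood at 12303 per 1000000 in the highest 1%, with a log2 ratio to low pairs of 1.44 (1.41 to 1.47), against 0.67 in the rest of the highest 10%. Hp had 1.10 and 0.45, Mt2 1.88 and 0.78, and Lbp 0.88 and 0.40. The median of the acute-phase protein list was 0.36 in the highest 1% and 0.15 in the rest, that of interferon genes 0.45 and 0.17, and that of all genes -0.03 and -0.05. Of 7561 genes measured in the highest 1%, 421 (5.57%) were at least 1.5-fold higher than in low pairs and 854 (11.3%) at least 1.5-fold lower, with 56 pairs. Of the 30 acute-phase proteins 9 were higher and 1 lower by that measure. Saal1 had 2.99 and 0.91. These pairs were 55.4% (41.5 to 68.7) periportal among all 56 in the highest 1%, blocks 1 and 2 included.

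Both cells of a pair share 1 well, so a transcript cannot be assigned to the hepatocyte or to its attached cell. The 20 endothelial markers summed to 988 (961 to 1016) per 1000000 in high and 979 (967 to 990) in low pairs, a log2 ratio of 0.01 (-0.03 to 0.06). None of them passed 1.5-fold. Kdr, a receptor for vascular endothelial growth factor, had 0.04, Clec4g, a sinusoidal lectin, 0.16, and Pecam1, which encodes CD31, -0.29 (-0.62 to 0.03). Alb was found in 100% of pairs of both groups, but also in 83.9% of the wells with single non-parenchymal cells. These values do not show which cells an individual pair held.

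Few genes of endothelial inflammation differed much. Of 12 measured 3 were at least 1.5-fold higher, against 0.619% of all genes: Cxcl9, Ly6a and Ly6e. Ly6e, a surface protein induced by interferon, stood at 333 against 217 per 1000000 (log2 0.61, 0.54 to 0.69), but under 1.5-fold at 0.58 without blocks 1 and 2, 0.30 within zones and 0.29 by the Saa ranking. Ly6a stood at 18.1 against 10.5 (0.78, 0.42 to 1.12). Icam1, an adhesion molecule for leukocytes, had 0.38 (-0.10 to 0.84). Of 12 measured genes of sinusoidal function none passed 1.5-fold, with a median of -0.08.

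Markers of other cells were rare in both groups. The 12 Kupffer cell markers found summed to 41 UMIs in high and 324 in low pairs (8.23 against 11.7 per 1000000). C1qa, Marco and Timd4 were at 0 in high pairs, and Emr1 in both groups. The 14 neutrophil markers gave 3 and 10 UMIs, with 12 at 0 in high pairs, S100a8 among them, and 8 at 0 in both groups. The 14 T and NK cell markers gave 8 and 47 UMIs, with 11 at 0 in high pairs, Cd3e among them. Of the 14, 5 were at 0 in both groups, Cd8a among them. Of the 10 dendritic cell markers 6 were at 0 in high pairs, 5 of them in both groups. The list gave 43 and 46 UMIs, a log2 ratio of 2.38 (1.74 to 3.01). Cd74, the invariant chain of MHC class II, gave 28 of the 43 in high and 8 of the 46 in low pairs. Of its UMIs in high pairs 60.7% lay in 5 pairs. H2-Aa had 9 and 12 UMIs, H2-Ab1 4 and 15, and Clec9a 2 and 9. In the highest 1% Cd74 was found in 7 of 54 pairs, and the part of such cells in the Cxcl9 result was not tested.

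Monocyte or macrophage markers, leaving out Saa3 and Fn1, gave 13 and 89 UMIs, with Ccr2 at 0 in both groups and Cx3cr1 at 0 and 2. B or plasma cell markers gave 12 and 197, with Cd79a at 0 in both groups and Cd79b and Ms4a1 at 0 and 2 each. Stellate cell or fibroblast markers stood at 75.1 against 78.4 per 1000000 and platelet or erythroid markers at 107.9 against 108.8. The 9 bile duct cell markers were higher, with 118 and 322 UMIs (log2 1.03, 0.71 to 1.34), while Epcam, Krt19 and Krt7, which define that cell type, were at 0 in both groups. Spp1, encoding osteopontin, had 41 and 44 UMIs, and Sox9, a factor of duct cells and of hepatocytes next to the portal vein, 41 and 125. Their part in the periportal differences was not tested.

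Single non-parenchymal cells had lower levels of Saa1, Saa2, Orm1 and Orm2 than the pairs, and a higher level of Lcn2. In 3720 wells with a median of 526.5 UMIs, Saa1 had 35 UMIs, 13.2 (9.16 to 18.3) per 1000000, and no well had more than 2. Saa2 had 11 UMIs, Orm2 12 and Orm1 203, with at most 4 in a well. Alb, a hepatocyte transcript, had a UMI in 83.9% of these wells at 5253 per 1000000, which is 8.18% of its level in pairs of the 15 blocks. On that scale Saa1 stood at 8.09% and Saa2, with few UMIs, at 8.07%, while Hp stood at 10.8%, Orm1 at 16.3% and Orm2 at 37.7%. These shares depend on leaving out blocks 1 and 2. In the 15 blocks pairs had 163 Saa1 and 51.3 Saa2 per 1000000, but over all pairs 567 and 378. Alb stood at 64188 and 63956. Saa3 had 23 UMIs, or 8.65 (5.48 to 12.97) per 1000000, against 21.1 in pairs of the 15 blocks. Lcn2 stood at 23.7 (18.2 to 30.3) against 6.36 in those pairs, with up to 8 UMIs in a well. Cxcl9 was different, at 262 (243 to 282) per 1000000 and with up to 65 UMIs in a well, found in 5.89% of wells. In pairs of the 15 blocks Cxcl9 stood at 36.5, and over all pairs at 36.1. The single cells came from older mice, so age and cell type cannot be told apart.

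Other programmes had list medians within 0.2 of 0. Medians over measured members were -0.03 for the unfolded protein response and secretory genes (31), -0.04 for ribosomal proteins (27), 0.02 for the respiratory chain (20) and -0.02 for glucocorticoid targets (16). They were 0.03 for growth hormone and IGF genes (14), -0.09 for lipid and bile acid metabolism (26) and 0.16 for iron and zinc handling (17). Urea cycle and amino acid breakdown genes had 0.13 (28), with 3 at least 1.5-fold higher and 2 lower. Immediate early and heat shock genes had -0.10 (18), and cell cycle and p53 genes -0.12 (10). The median of nuclear receptors and liver factors was -0.002 (19). Hamp, which encodes the iron hormone hepcidin, had 0.22 (0.15 to 0.28) and was higher in 10 of 17 blocks. Egr1, an immediate early gene, had 0.72 (0.36 to 1.06), and Atf3, a stress factor, -0.81 (-1.53 to -0.16). With pairs thinned to equal depth and ranked anew, which gave 316 high and 3031 low pairs, these were -0.0364 and 0.16. Neither direction held there, though both the depth and the groups had changed. Atf3 had 0.17 by the Saa ranking.

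The genes whose level per pair followed the acute-phase share most closely over the 4546 pairs of the 15 blocks were Hpx, with a Spearman correlation of 0.25, Sds (0.19), Mup3 (0.19), Serpina1c (0.19), Hp (0.19) and C9 (0.19). The lowest was Cyp2e1, a pericentral landmark, at -0.19. All values share the pair's depth as a denominator, and all are weak.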

How the data were processed

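Each deposited table gives UMI counts by gene symbol (lines) and well (columns), and the authors left them unnormalized, judging by the whole values. Libraries were made with MARS-seq, per the labels' protocols. The submitters' processing notes name bcl2fastq 2.15.0.4 and build mm9. No aligner, annotation or strand setting is given in the sources used here. The 92 ERCC spike-in rows, 0.715% of UMIs in the pair table, were left out, which left 56976156 gene UMIs and 2423 to 49311 per pair.

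UMIs were summed over the pairs of each group. Levels are per 1000000 gene UMIs, without the 5 ranking genes where groups are compared. Levels have exact Poisson intervals, ratios exact conditional binomial intervals and shares exact Clopper-Pearson intervals, at 95%, all for counting error only. A gene was called at a fold of 1.5 with at least 200 UMIs over both groups. A block's direction was read from at least 10 UMIs. A zone score set pericentral against periportal landmark UMIs, with limits at 0.314 and 0.618. Thinning drew 2000 UMIs from each pair without replacement. For ratios and gene counts the thinned pairs were ranked anew, while shares of thinned pairs with a UMI used the original 469 and 2315 pairs. Doublet calling was not run, since pairs were sorted into wells on purpose. No well name is shared by the tables.

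Named genes were the 5 ranking genes, the 12 largest folds in each direction with an interval excluding no difference, up to 4 members of each list with the largest folds, all measured acute-phase proteins, and the 6 genes best correlated with the share. Members and lists were chosen with earlier results of these data known. Python 3.11.15, numpy 2.4.6, scipy 1.17.1, pandas 2.3.3 and, for alternative scaling factors only, edgeR 4.0.16 were used. The ratios were tested on simulated counts. Alternatives changed the scaling, the minimum, the fold, the depth, the ranking genes, the size of the groups and how they were taken, and left out each block. Promoter sequences come from RefSeq on GRCm38.p6, a later build than mm9, and no coordinates of the deposited files were used with them.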

Additional observations from a re-analysis of the deposited data

How the results depend on the processing

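No paired analysis was possible because wells carry no mouse or replicate number in the sources used. Counts of genes at least 1.5-fold higher and lower, 49 and 130 as reported, depended most on the minimum and the fold: 231 and 446 at 50 UMIs, 19 and 24 at 1000, 1659 and 1101 with no minimum, 244 and 660 at the lower fold limit, and 17 and 12 at 2-fold. They were 28 and 47 within zones, 210 and 306 over the whole table, 25 and 46 against the lowest 10%, and 421 and 854 for the highest 1%, which has few UMIs. The count lower was 55 for the highest 20% and 42 by Saa, and the count higher was 32 after thinning. With ratios centred on the median of all genes the counts were 65 and 93.

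The median of acute-phase proteins, 0.16, was 0.10 within zones, 0.32 over the whole table, 0.0545 by Saa and 0.36 for the highest 1%. The periportal share of high pairs was 33.2% within zones, as that choice sets it, 42.6% over the whole table and 39.2% by Saa. The depth ratio of high to low pairs, 0.872, was 1.01 after thinning, 0.975 within depth classes, 0.953 for the highest 20%, 1.23 against the lowest 10% and 1.03 by Saa. The endothelial log2 ratio, 0.01, was 0.0594 centred, 0.11 over the whole table, -0.0334 within depth classes, -0.27 against the lowest 10%, -0.10 by Saa, 0.0652 by Orm and -0.11 for the highest 1%.

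The summed ranking genes had a log2 ratio of 2.00. It was 2.05 centred, 2.06 as a mean over pairs, 3.10 thinned, 1.90 within zones, 4.94 over the whole table, 1.93 within depth classes, 1.61 for the highest 20% and 2.28 against the lowest 10%. By subsets it was 1.72 by Saa, 1.38 by Orm and 2.03 without Lcn2. It was 2.09 without pairs holding at least 2 myeloid marker UMIs, 2.68 without blocks 1 and 2, 3.07 for the highest 1% and 1.75 for the highest 10% without it. Leaving out each block in turn gave 48 to 58 genes higher, 119 to 141 lower, a median of 0.15 to 0.18, a periportal share of 49.7% to 52.9%, a depth ratio of 0.864 to 0.908, an endothelial ratio of -0.02 to 0.05 and 1.91 to 2.26 for the ranking genes.

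Of 4658 values of 137 named genes over 34 settings, 4525 kept their sign, and 17 changed sign for a gene called at 1.5-fold. The sign changed when pairs were ranked by Saa for Mup17 (0.77), Gm13775 (0.37), Slc1a2 (1.29), Lpl (0.10), Cyp2c38 (0.50), Lect2 (0.0949), Cyp2c37 (0.54), Cyp2c29 (0.11), Cyp2c54 (0.0517), Glul (0.74), Oat (0.83) and Atf3 (0.17). It changed with thinning for Ccdc34 (0.18), Atf3 (0.16) and Egr1 (-0.0364), within zones for Cyp2c29 (0.00293) and over the whole table for Tbx3 (0.0773). The cause was not tested. Leaving out blocks 1 and 2, splitting off the highest 1% and leaving out the highest pair were chosen after seeing the data.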
